A study of Mus musculus with 8 samples.

Results

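The cytosolic ribosomal protein genes were followed in dorsal root ganglia of mice that lack most transcript of Tmem184b. They were chosen by symbol, as every distinct Ensembl gene named Rpl or Rps with a number and an optional a or x, together with Rplp0, Rplp1, Rplp2 and Rpsa. This rule found 76 of 40800 identifiers, 46 for the large (60S) and 30 for the small (40S) subunit. It used no measured value, and it leaves out genes such as Fau and Rps3a1, whose symbols differ from those of the proteins they encode or carry an added digit.

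Dorsal root ganglia are the clusters of sensory nerve cell bodies beside the spinal cord. RNA sequencing was done on whole ganglia of 4 wild-type mice, labelled C57BL/6, and 4 Tmem184b gene trap homozygotes on a C57BL/6 background. Every animal was 6 months old. The trap is an inserted cassette that cuts transcripts short, and it is carried by every cell of the animal, so it is not limited to neurons. The labels give no sex, litter or batch. The column headers also carry running numbers of unstated meaning, which do not overlap between the genotypes, and a batch in them was not tested. Samples are named here by genotype and number, as wild types 1, 3, 4 and 8 and mutants 1 to 4.

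A ribosome joins a small subunit, which reads the messenger RNA, to a large subunit, which forms peptide bonds. Each subunit is a core of ribosomal RNA dressed with ribosomal proteins, most of which are needed in a single copy. Their messenger RNAs are among the most abundant of most cells and begin with a run of pyrimidines at the 5′ end, the TOP motif, through which mTOR and the RNA-binding protein Larp1 govern their translation. In sensory neurons they are made in the cell body and also carried into the axon. Mammalian genomes hold many processed pseudogenes of these genes, which are intronless copies of their messenger RNAs.

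To show how close such copies can be, the first coding bases of 3 members are set beside those of a pseudogene, with mismatched bases in capitals. The spans are those of the gene and of its copy in GRCm38 (GENCODE M21), and all sequences are read 5′ to 3′ in coding orientation. Rps2 lies at chr17:24718116-24721929 (plus strand) and its copy Rps2-ps13 at chrX:52898588-52899469 (plus). Rpl9 lies at chr5:65388364-65391444 (minus) and Rpl9-ps7 at chr2:70458982-70459560 (plus). Rpl10 lies at chrX:74270812-74273135 (plus) and Rpl10-ps6 at chr19:37295155-37295796 (minus).
Rps2: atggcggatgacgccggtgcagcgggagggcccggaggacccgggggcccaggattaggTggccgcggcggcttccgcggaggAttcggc
Rps2-ps13: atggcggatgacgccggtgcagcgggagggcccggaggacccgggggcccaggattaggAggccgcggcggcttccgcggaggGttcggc
Rpl9: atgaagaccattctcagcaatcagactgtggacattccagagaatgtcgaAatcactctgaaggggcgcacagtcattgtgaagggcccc
Rpl9-ps7: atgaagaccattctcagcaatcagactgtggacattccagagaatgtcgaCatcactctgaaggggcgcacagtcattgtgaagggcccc
Rpl10: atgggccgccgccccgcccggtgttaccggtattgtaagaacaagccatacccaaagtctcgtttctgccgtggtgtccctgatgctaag
Rpl10-ps6: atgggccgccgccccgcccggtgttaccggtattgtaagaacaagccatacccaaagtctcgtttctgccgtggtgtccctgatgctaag
Over these 90 bases Rps2 and its copy differ at 2 positions, Rpl9 and its copy at 1, and Rpl10 and its copy at 0. Reads listed for these copies were few, at 0 to 1 per sample for Rps2-ps13, 0 to 4 for Rpl9-ps7 and 0 to 3 for Rpl10-ps6. How the authors assigned reads that match more than 1 gene is not given in the sources used here.

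Runs of pyrimidines near the start, sought as possible matches to the TOP motif, are shown for 4 members whose values are described below. Each window of 30 bases is centred on a RefSeq start site (GRCm38.p6). Capitals mark the run, which had to open with a C within 5 bases of the start and go on for at least 4 more pyrimidines. The run opens after the centre of the window in Rps2 and before it in Rpl35a. Whether these messenger RNAs begin with the run was not tested. The windows are chr17:24720048-24720077 for Rps2, chr16:33056467-33056496 for Rpl35a, chr2:180257364-180257393 for Rps21 and chr14:24490663-24490692 for Rps24, all on the plus strand.
Rps2: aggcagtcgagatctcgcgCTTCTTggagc
Rpl35a: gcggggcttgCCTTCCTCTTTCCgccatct
Rps21: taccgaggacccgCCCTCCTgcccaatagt
Rps24: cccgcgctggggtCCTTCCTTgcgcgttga
The run was 6 bases long in Rps2, which was called lower in the mutant. It was 13, 7 and 8 bases in Rpl35a, Rps21 and Rps24, whose means were higher but which were not called. A relation of run length to the difference was not tested. Of the 76 members 56 had an entry in the RefSeq table of start sites, and 48.2% of those held such a run, against 21.2% of all 27025 genes in it. In the window from 250 bases before to 50 after the start, the ETS-type motif CCGGAAG, sought on both strands, was in 41.1% of members and 9.9% of all genes. AAGATGG, the core bound by YY1, was in 16.1% against 7.3%, the GC box GGGCGG in 60.7% against 38.2% and TATAAA in 10.7% against 15.7%. These are matches of letters, and no factor's binding was measured.

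The files held 6177680 to 7975562 reads per sample in genes, so that 1 read was worth 0.125 to 0.162 CPM, the reads of a gene scaled to a fixed library total. The trapped gene itself followed the labels: Tmem184b had a log2 CPM of 7.43, 7.51, 7.37 and 7.36 among wild types and of 2.68, 2.86, 2.47 and 3.10 among mutants (difference -4.64, SE 0.113, limma adjusted p = 2.57e-12). Markers of the ganglion were present, with 12 sensory neuron markers summing to 15569.2 to 17007.9 CPM. Mutant 4 stood apart in 2 marker lists. Its 7 skeletal muscle markers summed to 167.7 CPM against 4.1 to 49.5 in the other samples, and its 8 satellite glia markers to 3271.8 against 2078.4 to 2830.7.

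Reads assigned to the ribosomal protein genes made up a small share of each library, although such messenger RNAs are among the most abundant of most cells. The median member stood at a log2 CPM of 3.03, against 4.24 over tested genes. What sets this share was not tested. Summed over the 76 members, the level was 1509, 1516, 1616 and 1685 CPM among wild types 1, 3, 4 and 8, and 1617, 1712, 1589 and 1934 CPM among mutants 1 to 4. Mutant 4 was the highest of the 8 samples, and mutant 2 also lay above every wild type. Mutants 1 and 3 lay within the range of the wild types. The mean was 1582 ± 84.6 CPM in wild type against 1713 ± 156 CPM in mutant ganglia (SD, n = 4 each), a ratio of 1.083, or 1.037 without mutant 4. The members held 0.151% to 0.193% of the reads of a sample.

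The 46 large-subunit genes went from 997.9 ± 51.7 CPM in wild type to 1084 ± 105 CPM in the mutant, and the 30 small-subunit genes from 583.7 ± 34.2 to 629.3 ± 52.2 CPM (SD, n = 4). The ratios were 1.086 and 1.078, or 1.035 and 1.039 without mutant 4, and the samples of the genotypes overlapped in both sums. The nuclear genes of the mitochondrial ribosome, a separate machine that translates the mitochondrial genome, went from 1280 ± 93.9 to 1376 ± 85.4 CPM. Their ratio was 1.075, or 1.044 without mutant 4. Mutant 4 was highest in all 3 sums. In whole ganglia, a change in the number of cells of a type and a change in RNA per cell cannot be told apart.

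**Figure D1:**
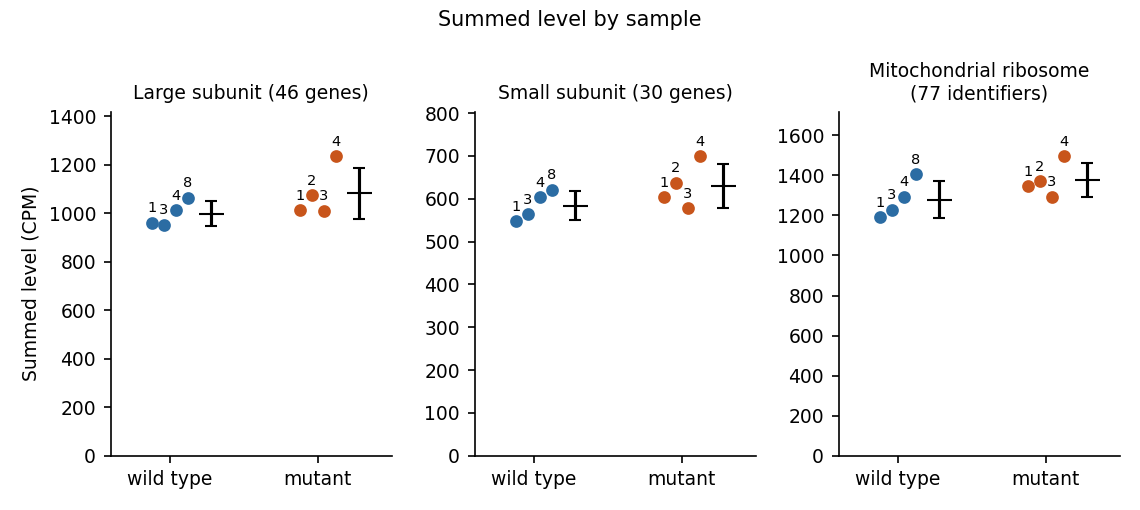
Summed level in CPM of the large-subunit genes, the small-subunit genes and the mitochondrial ribosomal protein genes, with a point for each sample (numbered as in the labels) and the mean with 1 SD beside it. The wild types span 952.3 to 1064 CPM in the large subunit and the mutants 1011 to 1235, with mutant 4 highest in each panel.

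Levels differed far more between members than between genotypes. Per kilobase of transcript, the mean over the 8 samples ran from 0.21 CPM per kb for Rps23 to 274.5 for Rplp1, a span of 1307-fold among proteins that a ribosome holds in similar numbers. Rplp1 encodes a protein of the acidic stalk. Other high members included Rpl8 at 152.1, Rpl4 at 118.1 and Rpl13a at 84.1 CPM per kb. The 5 members of highest CPM made up 38.6% of the summed level in wild type. At the other end 45 of the 76 stayed under 100 reads in every sample and 7 under 10, while 6 held over 500 in every sample.

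The level followed how much of a transcript is found in no other gene. For each member, all windows of 150 bases in its representative transcript were looked up in the transcripts of all other genes, and the share with no exact match was taken. The 25 members with the least such sequence (median 27.5% unshared) had a median level of 2.04 CPM per kb, the next 26 (71.5%) 10.43, and the 25 with the most (99.7%) 38.61. Spearman's rho between the share and the level per kb was 0.71 over 76 genes, and Pearson's r on log2 levels was 0.66. Genes are not independent replicates, and this is a description of the table. With the number of pseudogene copies in place of the unshared share, rho was -0.44.

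Single members show both the pattern and its exceptions. Rps27, a zinc finger protein of the small subunit, had 2.0% of its windows unshared and 0 to 5 reads per sample, and Rpl10, which is placed late in large-subunit assembly, had 9.1% and 10 to 38 reads. Rps3, Rpl4 and Rpl8 had 100% unshared and 509 to 1583 reads. Against the pattern, Rps29 had 90.9% and Rps23 61.3% of windows unshared with at most 4 reads, and Rpl13a had 47.3% with 528 to 735 reads. For Rps29 and Rps23 the number of windows shared does not separate them from members with far higher levels, and what sets their counts was not tested.

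**Figure D2:**
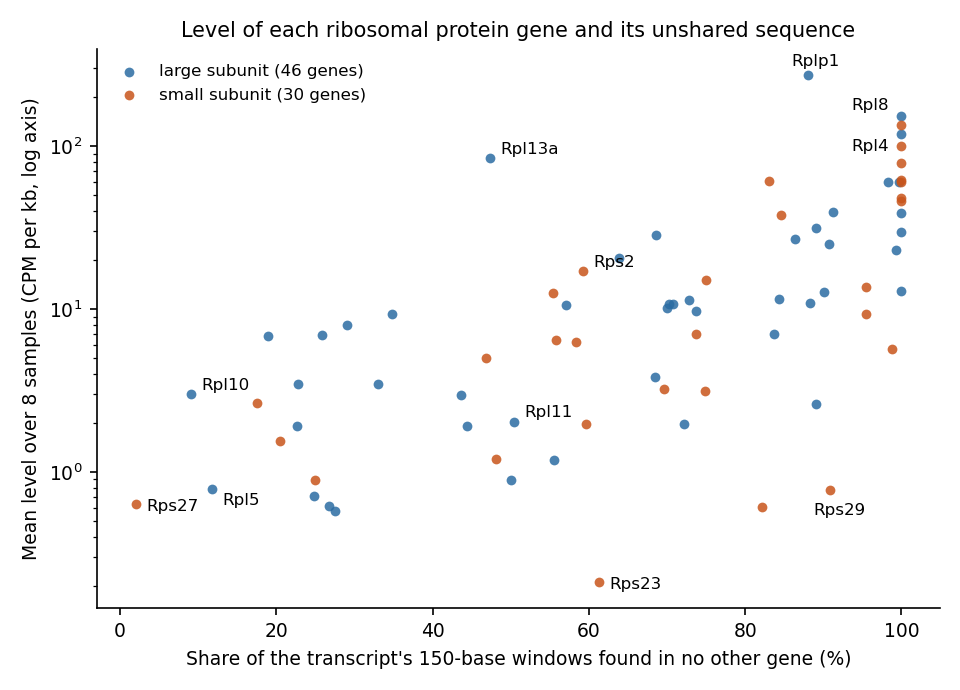
Mean level of each of the 76 members over 8 samples (CPM per kb, log axis) against the percentage of its transcript's 150-base windows found in no other gene, coloured by subunit. Levels rise to the right, from Rps27 at 2.0% unshared to Rpl8 at 100%, with Rps23 and Rps29 far under and Rpl13a far over the other genes at their share.

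Each annotated pseudogene copy was assigned to the 1 gene it matched best. Counted so, members had a median of 9 copies and up to 76, and 5 were assigned none. Rps27 was among these, while Rps27rt, a gene outside the name rule, was assigned 9. The mitochondrial ribosomal protein genes, of which 55 of 76 had no copy and the median unshared share was 100%, had a median level of 10.56 CPM per kb against 9.54 for the members. The cytosolic genes are thus listed at about the level of the mitochondrial ones. Of the 957 annotated copies, 651 were in the table, and together these took 57.5 to 99.2 CPM per sample, a small fraction of the members' sum. By genotype they took 57.5 to 86.1 CPM among wild types and 87.2 to 99.2 CPM among mutants, without overlap but by a narrow margin. The ratio of the means was 1.251, or 1.218 without mutant 4, and this difference was not tested. The sum is uneven over members. Copies of Rpl11 took 3.26 to 6.44 CPM among wild types and 8.78 to 11.48 among mutants. Other copies overlapped between genotypes, at 0.79 to 10.67 and 0.86 to 12.29 CPM for Rplp0. They took 0.25 to 3.85 and 0.32 to 8.29 CPM for Rplp1, and 6.99 to 10.23 and 7.24 to 10.01 for Rps24. Of the 76 members 45 were overlapped by another gene, in many cases one named as a small nucleolar RNA (Snora or Snord). Whether counting used the strand is not given in the sources used here.

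The comparison of mutant with wild type asked which of these genes differ in ganglia that have lost most Tmem184b transcript. Of the 76 members 69 passed the filter on low values (log2 CPM above 0 in at least 4 of 8 samples), which takes samples of either genotype alike. One member, Rps2, was lower in the mutant with a limma adjusted p under 0.05, where 2.64% of all 15030 tested genes were, and 0 were higher, where 2.81% were. At an unadjusted p under 0.05, 9 members (13.0%) were higher and 1 (1.45%) was lower, against 14.1% and 7.21% of all genes. The groups did not overlap, with all mutants above, for 4 members (5.8%), against 7.5% of all genes, and with all mutants below for 0, against 4.92%. At the unadjusted threshold and by overlap, the shares of higher members were thus near those of genes at large.

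The mean was higher in the mutant for 53 of 69 members (76.8%), against 64.4% of all tested genes. Of 73 tested mitochondrial ribosomal protein genes 60 were higher and 13 lower, so such a count is not particular to the members. The median difference over the members was 0.13 log2 units (quartiles 0.02 and 0.26), against 0.066 over all genes (quartiles -0.06 and 0.21). Centring each sample on its median over tested genes shifts every difference by the same -0.092. On that scale 39 of 69 members were higher and the median was 0.038, against -0.026 over all genes. A common shift cannot change the distance of members from other genes, and the count of higher members depends on where 0 is set. Centring without mutant 4 gave 38 members and a median of 0.023, against -0.023 over all genes. Without mutant 4 and without centring, the medians were 0.095 and 0.05. Mutant 4 was the highest of the 8 samples in 29 members (42.0%), where it was highest in 25.2% of all tested genes, and the part of its muscle and glial marker levels in this was not tested.

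Most members moved little. The difference lay within 0.25 log2 units for 48 of 69 and beyond 0.5 for 5 (Rps2, Rpl9, Rps28, Rpl10 and Rpl35a). In the large subunit 31 of 43 tested members had a higher mutant mean, with a median of 0.11, and in the small subunit 22 of 26, with a median of 0.13. The 39 members with a mean log2 CPM above 3 had a median standard error of 0.114 log2 units and the other 30 of 0.248, so differences among low members were measured less closely. Across the 69 genes, Spearman's rho of the difference was -0.07 with the level, 0.03 with the deposited GC percent and -0.06 with the unshared share.

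**Figure D3:**
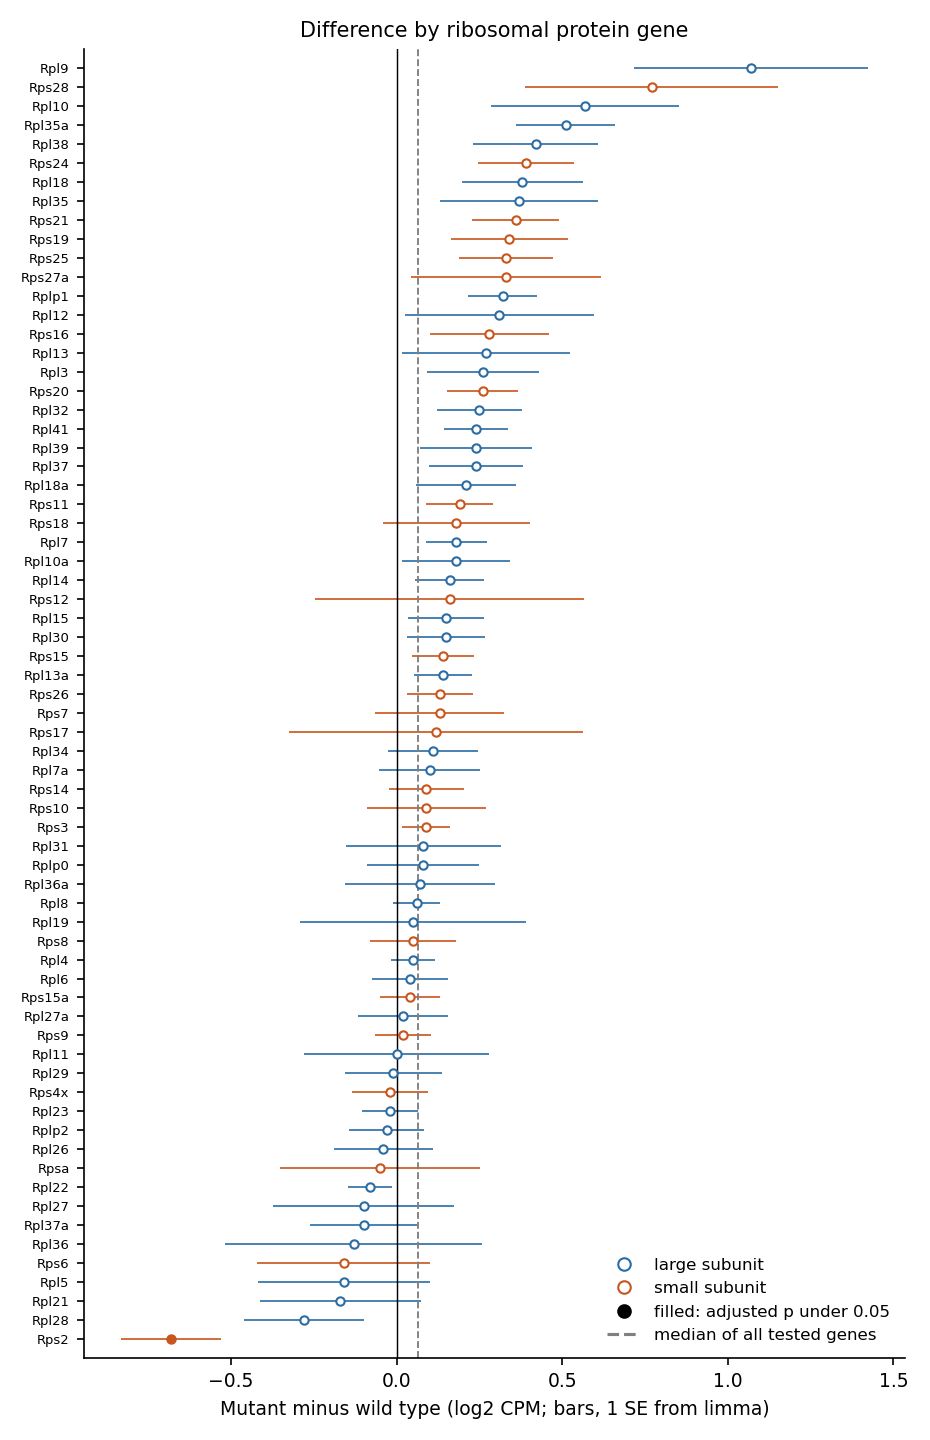
Mutant minus wild type in log2 CPM for 68 of the 69 tested members, sorted, with 1 SE from limma and colour by subunit. Rps2 at -0.68 holds the lone filled point (limma adjusted p under 0.05), and most others lie between 0 and 0.5, around the dashed median of all tested genes at 0.066.

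Rps2 encodes a small-subunit protein at the entry of the messenger RNA channel. By sample, its log2 CPM was 4.65, 4.49, 4.44 and 4.04 among wild types 1, 3, 4 and 8, and 3.45, 4.06, 3.58 and 3.82 among mutants 1 to 4, from 128 to 177 reads in wild type and 71 to 101 in the mutant. Wild types 1, 3 and 4 lay above every mutant, and wild type 8 lay just under mutant 2. The mean level fell from 21.1 ± 3.61 CPM to 13.1 ± 2.53 CPM (SD, n = 4), a difference of -0.68 log2 units (SE 0.151, limma adjusted p = 0.0178). The exact two-sided permutation p was 0.0571, where 4 against 4 samples allow no less than 0.0286.

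The Rps2 call held in 22 of 26 alternatives, in which the difference lay between -0.91 and -0.51, and it was -0.77 (limma adjusted p = 0.00548) after median centring. It was lost without the variance trend (adjusted p = 0.104) and without wild type 1 (-0.60, 0.0688), wild type 3 (-0.65, 0.0537) or mutant 1 (-0.58, 0.0586). Rps2 has 50 annotated pseudogene copies, 59.2% of its windows are unshared, and Snhg9, Snora64 and Snora78 overlap it. Reads of its copies amounted to 2.27 to 5.33 CPM among wild types and 3.54 to 4.58 CPM among mutants, and with them added the difference was -0.51 (limma adjusted p = 0.0485).

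No other tested protein of the messenger RNA channel and decoding site was called. Of the 7 tested members of that list 6 had a higher mutant mean. Rps3, at the channel entry with Rps2, had 509 to 732 reads among wild types and 542 to 710 among mutants (difference 0.09, SE 0.0725, limma adjusted p = 0.512). Rps15, at the decoding site, differed by 0.14 (SE 0.0936, adjusted p = 0.407). Whether Rps2 differs from these genes in its response was not tested.

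Rps16, which contacts the transfer RNA in the small subunit, was at 1.65, 1.83, 1.89 and 1.89 log2 CPM among wild types and at 2.25, 2.0, 2.15 and 1.95 among mutants. All mutants lay above all wild types, by a narrow margin and from 18 to 30 reads. The difference was 0.28 (SE 0.179, limma adjusted p = 0.401; exact permutation p = 0.0286). Rps20, in the head of the small subunit, differed by 0.26 (SE 0.108, adjusted p = 0.181).

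At the platform and exit side of the small subunit 5 of 6 tested members had higher means and 0 were called. Rps21 was at 3.75, 3.98, 4.21 and 4.33 log2 CPM among wild types and 4.22, 4.54, 4.37 and 4.58 among mutants, with wild type 8 above mutant 1 (difference 0.36, SE 0.131, limma adjusted p = 0.128). Rps28, with 2 to 12 reads among wild types and 6 to 14 among mutants, differed by 0.77 (SE 0.381, adjusted p = 0.265). Its reads are too few to place the difference closely.

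Among other small-subunit members, Rps25 lay at 2.66, 2.99, 2.80 and 3.09 log2 CPM among wild types and 3.14, 3.20, 3.20 and 3.30 among mutants. The groups did not overlap, and the mutants were the tighter group (difference 0.33, SE 0.141, limma adjusted p = 0.192). Rps25 is known for its part in starting translation at internal entry sites. Rps24, needed for processing of 18S ribosomal RNA, was at 3.83, 3.88, 4.15 and 4.47 among wild types and 4.32, 4.57, 4.28 and 4.73 among mutants. Wild type 8 lay above mutants 1 and 3, and the difference was 0.39 (SE 0.145, adjusted p = 0.132). Rps24 passed the threshold without wild type 8 (0.52, adjusted p = 0.045).

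Rps19, the gene most often mutated in Diamond-Blackfan anaemia, a failure of red cell production caused by ribosomal protein loss, differed by 0.34 (SE 0.177, limma adjusted p = 0.298). Of the 17 tested members linked to that disease 13 had a higher mutant mean, with a median of 0.13, as over all members, and 0 were called. Rps6, the protein phosphorylated by S6 kinase downstream of mTOR and widely used as a readout of neuronal activity, had 13 to 21 reads among wild types and 9 to 17 among mutants (difference -0.16, SE 0.261, adjusted p = 0.768). Rps27a, a fusion of ubiquitin with a small-subunit protein, differed by 0.33 from 5 to 10 reads per sample (SE 0.288, adjusted p = 0.546).

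In the large subunit Rpl35a came nearest to a call. By sample, its log2 CPM was 2.51, 2.57, 2.33 and 2.31 among wild types and 2.81, 2.89, 2.94 and 3.10 among mutants, from 32 to 45 and 44 to 58 reads. All mutants lay above all wild types. The mean was 5.11 ± 0.479 CPM in wild type against 7.38 ± 0.668 CPM in mutant ganglia (SD, n = 4; difference 0.51, SE 0.150, limma adjusted p = 0.0649; exact permutation p = 0.0286). Rpl35a is another of the anaemia genes, with 90.1% of its windows unshared.

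Rplp1 and Rplp2 are the acidic proteins of the stalk that recruits elongation factors, Rplp0 is their base and Rpl12 lies beside it. Rplp1 was at 6.74, 6.83, 7.14 and 6.98 log2 CPM among wild types and 7.10, 7.20, 7.09 and 7.57 among mutants. Mutants 1 and 3 fell below wild type 4, and mutant 4 was the highest by far (difference 0.32, SE 0.105, limma adjusted p = 0.0906). Its partner Rplp2 differed by -0.03 (SE 0.114, adjusted p = 0.927), Rplp0 by 0.08 (SE 0.168, adjusted p = 0.842) and Rpl12 by 0.31 from 7 to 15 reads (SE 0.286, adjusted p = 0.578). Without wild type 4 Rplp1 passed the threshold (adjusted p = 0.0374), and without mutant 4 its difference was 0.21.

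Rpl9 had the largest difference of all members and few reads behind it. It had 2, 4, 10 and 9 reads among wild types and 15, 8, 12 and 17 among mutants. Mutant 2 lay between the wild types. The difference was 1.07 (SE 0.352, limma adjusted p = 0.0929), and 22.6% of its windows are unshared. Without wild type 4 it passed the threshold (1.32, adjusted p = 0.0392).

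At the peptidyl transferase centre and the transfer RNA contacts, 3 of 4 members had higher means. Rpl10 had 13, 15, 10 and 14 reads among wild types and 16, 14, 13 and 38 among mutants, so that mutant 4 carried the difference of 0.57 (SE 0.284, limma adjusted p = 0.270), which was 0.27 without it. Rpl3, which reaches into the catalytic centre, differed by 0.26 (SE 0.169, adjusted p = 0.411). Rpl8, also near that centre, had 786, 979, 845 and 1063 reads among wild types and 843, 826, 768 and 1056 among mutants (difference 0.06, SE 0.0716, adjusted p = 0.706). With its low standard error Rpl8 is one of the members measured most closely, and its difference turned to -0.04 after median centring.

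Rpl4, which lines the peptide exit tunnel, was likewise closely measured, at 7.43, 7.39, 7.46 and 7.65 log2 CPM among wild types and 7.50, 7.44, 7.50 and 7.66 among mutants. The groups overlapped throughout (difference 0.05, SE 0.0671, limma adjusted p = 0.750), and the difference was -0.05 after median centring. Of 7 tested members at the exit tunnel 5 had higher means, with a median of 0.05 and 0 called. The largest there was Rpl35 (0.37, SE 0.239, adjusted p = 0.409).

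Of the remaining named members of the large subunit, Rpl41, which encodes a peptide of very few residues, was at 4.67, 4.38, 4.55 and 4.81 log2 CPM among wild types and 4.82, 4.87, 4.85 and 4.85 among mutants. The groups did not overlap, with wild type 8 just under mutant 1 (difference 0.24, SE 0.0967, limma adjusted p = 0.162). Rpl41 is one of several genes added here after their values were seen. Rpl38, known for its part in translating Hox messenger RNAs, differed by 0.42 (SE 0.189, adjusted p = 0.211), Rpl18 by 0.38 (SE 0.183, adjusted p = 0.254) and Rpl13 by 0.27 (SE 0.253, adjusted p = 0.583). Among the 69 tested members Rpl28 had the lowest difference after Rps2, with 26 to 43 reads among wild types and 22 to 29 among mutants (difference -0.28, SE 0.182, adjusted p = 0.412).

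**Figure D4:**
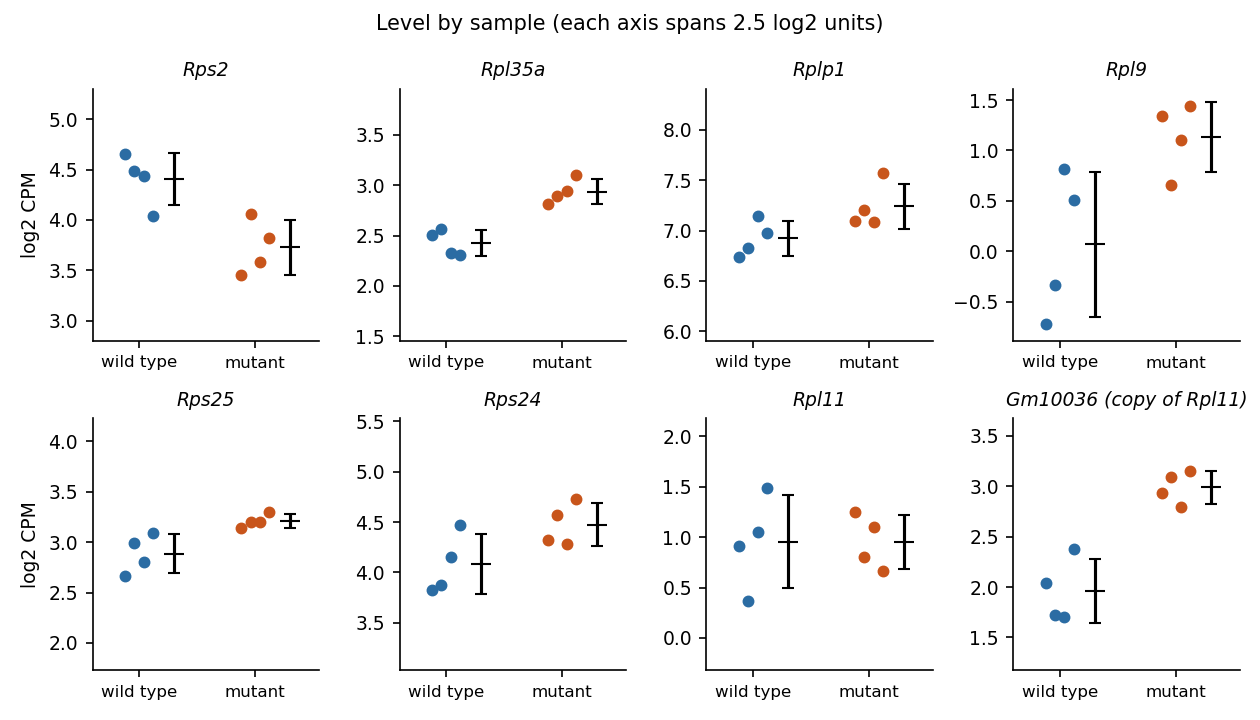
Log2 CPM by sample for 7 members and for Gm10036, a pseudogene copy of Rpl11, with the mean and 1 SD beside each group of 4 and every axis spanning the same range. Rps2 is lower among mutants with wild type 8 under mutant 2, Rpl35a and Rps25 are higher without overlap, and Gm10036 is higher in all 4 mutants, and the groups overlap for Rpl11.

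The 5S ribonucleoprotein, in which Rpl5 and Rpl11 carry 5S ribosomal RNA, binds Mdm2 when ribosome assembly fails and so raises p53. Rpl23 also binds Mdm2. None of the 3 genes was called, and their median difference was -0.02. Rpl5 had 10 to 15 reads among wild types and 8 to 14 among mutants, and Rpl11 8 to 20 and 9 to 14 reads. Rpl11 stood at 1.72 ± 0.629 CPM in wild type against 1.67 ± 0.366 CPM in mutant ganglia (SD, n = 4; limma adjusted p = 0.997).

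Copies of Rpl11 rose in the mutant, and Rpl11 itself was not called. Gm10036, a processed pseudogene 99.25% identical to the Rpl11 coding sequence over 534 bases, had 24, 24, 20 and 39 reads among wild types and 49, 51, 43 and 60 among mutants. All mutants lay above all wild types, and all samples held more reads of Gm10036 than of Rpl11. The level was 3.68 ± 0.919 CPM in wild type against 7.69 ± 0.891 CPM in mutant ganglia (SD, n = 4; difference 1.03, SE 0.187, limma adjusted p = 0.00586), and across alternatives the difference lay between 0.89 and 1.17 with an adjusted p of at most 0.0424. Gm12901, a copy 90.69% identical to Rpl11, had 4, 6, 1 and 10 reads among wild types and 18, 19, 14 and 11 among mutants (difference 1.53, SE 0.364, adjusted p = 0.0242, reaching 0.0977 in an alternative).

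With the reads of all its copies added, Rpl11 differed by 0.96 (limma adjusted p = 0.00649). The sum of the copies was 3.26 to 6.44 CPM among wild types and 8.78 to 11.48 CPM among mutants. Of 15 pseudogene copies of members that passed the filter, these 2 were called higher and 0 lower, and 12 had a higher mutant mean. Over all tested genes the shares were 2.81%, 2.64% and 64.4%. Both are named because of their values. Whether the reads come from the pseudogenes or from Rpl11 itself was not tested.

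Copies of Rplp0 varied between samples of the same genotype. Gm8730, 98.74% identical to Rplp0 over 951 bases, had 2, 3, 42 and 39 reads among wild types 1, 3, 4 and 8, and 49, 46, 33 and 2 among mutants 1 to 4. Gm9625, 97.37% identical, had 3, 2, 26 and 30 among wild types and 24, 26, 28 and 1 among mutants. Wild types 1 and 3 and mutant 4 were near 0 in both copies. Rplp0 itself had a log2 CPM of 6.37, 6.60, 6.08 and 6.08 among wild types and of 6.23, 6.38, 5.89 and 6.92 among mutants, with mutant 4 and wild type 3 highest. A copy of Rplp1, Gm11942, varied as widely, with 5, 2, 25 and 5 reads among wild types and 22, 1, 47 and 56 among mutants. With copies added, Rplp0 differed by 0.13 (limma adjusted p = 0.629) and Rplp1 by 0.35 (adjusted p = 0.077).

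The other 7 members did not pass the filter and were fitted only in the alternative without it. Rps23, which lies at the decoding site, had 0 to 3 reads per sample, Rps27 0 to 5 and Rps29 1 to 4. Rpl23a, at the mouth of the exit tunnel, had 1 to 3 and Rps13 1 to 6. Rpl17 had 2, 3, 1 and 4 reads among wild types and 3, 5, 7 and 5 among mutants, with mutants 2, 3 and 4 above every wild type. Rpl24, which bridges the subunits, had 2, 3, 3 and 10 among wild types and 2, 0, 0 and 3 among mutants. Fitted without the filter, Rpl17 differed by 0.75 (SE 0.333, limma adjusted p = 0.296) and Rpl24 by -0.93 (SE 0.375, adjusted p = 0.232), and none of the 7 was called. The reads are too few to place these differences closely.

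Genes around the ribosome were read from lists in the same way. None of 10 elongation factors, 39 initiation factors, 36 ribosome assembly factors, 14 RNA polymerase I genes or 73 mitochondrial ribosomal protein genes was called. Their medians were 0.01, 0.01, 0.05, 0.08 and 0.10, beside 0.13 for the members and 0.066 for all genes. In the same order, 5, 24, 27, 10 and 60 of these genes had a higher mutant mean. Among 18 other messenger RNAs known to carry a TOP motif 9 were higher and 9 lower, with a median of 0.01 and 0 called. Fau and Rps3a1 were not called either, and Rps3a1 differed by -0.25 (SE 0.145, limma adjusted p = 0.337).

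Of 14 genes of mTOR signalling to the ribosome 2 were called lower in the mutant and 0 higher, where 2.64% and 2.81% of all tested genes were. Deptor, an inhibitor bound to mTOR, was at 7.98, 7.93, 7.92 and 7.88 log2 CPM among wild types and 7.59, 7.54, 7.52 and 7.32 among mutants. All mutants lay well below all wild types (difference -0.43, SE 0.0618, limma adjusted p = 0.00149), and the call held in 26 of 26 alternatives. Larp1, the protein that binds TOP messenger RNAs, was at 8.69, 8.57, 8.57 and 8.57 among wild types and 8.50, 8.38, 8.39 and 8.27 among mutants. Its groups did not overlap either (difference -0.21, SE 0.0583, adjusted p = 0.0462), but the call held in 12 of 26 alternatives, with an adjusted p of up to 0.169. Protein levels, phosphorylation and translation were not measured.

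Some markers of cell types also differed by genotype. Called higher were 3 of 8 satellite glia genes, 2 of 8 myelinating Schwann cell genes, 1 of 7 tested immune genes (Cd163) and 1 of 6 fibroblast genes (Dcn), with list medians of 0.25, 0.24, 0.52 and 0.30. Of 12 neuron genes 2 were called lower (Avil and Scn10a), 5 had a higher mutant mean, and the median was -0.06. Over all tested genes 2.81% were called higher and 2.64% lower, 64.4% had a higher mutant mean, and the median was 0.066. All 6 tested skeletal muscle genes had a higher mutant mean (median 1.63) and 0 were called, as were 0 endothelial, red blood cell and adipocyte genes. The summed satellite glia markers were 2078.4 to 2560.5 CPM among wild types and 2385.0 to 3271.8 among mutants, and the neuron markers 15569.2 to 17007.9 and 15687.6 to 16367.0, so both sums overlapped between genotypes. Their part in the values of the ribosomal protein genes was not tested.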

How the data were processed

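Per the file headers, the deposited values are moderated log2 CPM in 1 table, with a GC percent for each gene that the authors took from annotation. The submitters' processing notes name Salmon 0.11.1, DESeq2 and mm9 with no role. The table's 41422 lines hold 40800 identifiers, and 402 listed more than once were used once. After the shared floor of -1.79 was subtracted on the linear scale, 100% of values were whole reads within 0.05. No sample was left out. Of the genes measured, 2 are counted in the totals and not reported here by name.

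Mutant and wild type were compared with limma 3.58.1 in R 4.3.3 (lmFit, eBayes with trend, two-sided, no covariate) on genes with log2 CPM above 0 in at least 4 of 8 samples, with Benjamini-Hochberg adjustment over all 15030, and called at an adjusted p under 0.05. Fold changes on this scale understate those of low genes. Exact permutation used all 70 assignments. Pairs of replicates differed by more than sampling noise (chi-square per degree of freedom 2.61 to 6.64).

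Copies were pseudogenes of GENCODE M21 (GRCm38) matching at least 80% of a member's coding sequence at 90% identity or more in blastn 2.17.0. Each was assigned once, to the gene it matched best among the members and other listed translation genes. Python 3.11.15, numpy 2.4.6, pandas 2.3.3, scipy 1.17.1 and matplotlib 3.10.9 were used, and the fit was tested on simulated data. Named members are those called, those with the largest differences up to 20, the 3 highest and 3 lowest, all those not tested, and called genes of other translation lists, with exceptions stated. Members and lists were chosen with earlier results of these data known. Alternatives covered the filter, offset, scaling, variance model, weights, voom, covariates, threshold, a replicate block and leaving out each sample.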

Additional observations from a re-analysis of the deposited data

Results flagged for a closer look

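Among 70 groups of 4 samples examined for a sample far from the others, 2 held one, where chance gives about 1 in 20, or 3.5. For Rps27 in the mutants, mutant 4 was at -1.79 log2 CPM, from 0 reads, and the other 3 at -1.19 to -1.15, from 1 read each, so the gap is a single read. For Larp1 in the wild types, wild type 1 was at 8.69 log2 CPM and the other 3 at 8.57.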

How the results depend on the processing

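The members called changed in 9 of 28 settings. The count of members called higher, 0 in the fit reported, was 1 with copies added (Rpl11), 3 at an adjusted p under 0.1, and 0 to 2 when each sample was left out. The count called lower, 1, was 0 without the variance trend and 0 to 1 when each sample was left out. The median difference of 0.13 was 0.038 with median centring, 0.035 with centring on other genes, 0.023 with centring without mutant 4, and 0.095 to 0.172 when each sample was left out. The difference in summed CPM, 131.5, was 57.9 without mutant 4. Adding pseudogene reads and centring without mutant 4 were chosen after the data were seen. Over all tested genes, 423 were called higher and 397 lower as deposited, 204 and 706 after median centring, and 67 and 75 without the variance trend.

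Median centring shifts all differences by -0.092, which took the count of higher members from 53 to 39. Of the named members, Rpl4 and Rpl8, with differences near 0, changed sign in this and other settings. They were at -0.0467 and -0.0363 with median centring, -0.0494 and -0.039 with centring on other genes, -0.0139 and -0.003 with TMM factors, -0.0003 and -0.0099 without mutant 4, and -0.073 and -0.0826 with centring without mutant 4. Leaving out each sample gave -0.0003 to 0.10 for Rpl4 and -0.0099 to 0.1074 for Rpl8. Rpl4 was at -0.0235 with the GC trend removed.

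Numbers 1, 3 and 4 occur in both genotypes, but same-numbered samples did not deviate together (r of 0.081, 0.041 and 0.058), and 1 of 3 samples correlated best with its own number. With a replicate block over these 6 samples 2 members were called higher, Rplp1 and Rps24, against 0 in the same samples without it. Low read numbers limit the precision of most members.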
